A study of Arabidopsis thaliana with 12 samples.

Results

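The 9 genes described here form the morning side of the Arabidopsis circadian clock. They were taken by locus identifier from count tables of 37184 genes in 12 libraries. They are CCA1 (AT2G46830), LHY (AT1G01060), RVE8 (AT3G09600), RVE4 (AT5G02840), RVE6 (AT5G52660), LNK1 (AT5G64170), LNK2 (AT3G54500), PRR9 (AT2G46790) and PRR7 (AT5G02810). All 9 were counted in every library and passed the filter on low counts that left 21974 genes for testing.

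The plant clock is a network of transcription factors that regulate one another in turn over the day. CCA1 and LHY, a pair of closely related MYB-like repressors made around dawn, hold down the genes of the evening, while RVE8, RVE4 and RVE6, MYB-like proteins of the same family, activate evening genes together with the coactivators LNK1 and LNK2. PRR9 and PRR7, pseudo-response regulators that follow CCA1 and LHY through the morning and the day, repress CCA1 and LHY in return. The evening repressor TOC1 and the evening complex of ELF3, ELF4 and LUX close the loop.

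The series compared 3 mutants with the wild type, each with 3 libraries that the design text calls biological replicates: the single mutant dxo1-2, the single mutant xrn3-8, the double mutant dxo1-2 xrn3-8, and Col-0. DXO1 is the plant relative of the DXO enzymes, which remove unusual 5′ caps from RNA, XRN3 is a nuclear 5′-to-3′ exoribonuclease, and the study asked how ribosomal RNA is processed without DXO1. RNA of all 4 genotypes came from whole seedlings that were 21 days old, kept on soil with 16 h of light and 8 h of darkness after 2 days of stratification at 4 °C. The sample titles mark the 9 libraries of dxo1-2, xrn3-8 and Col-0 as analysed again, and those of dxo1-2 xrn3-8 carry no such mark. The design text states that all 4 genotypes were grown and sequenced side by side. In every comparison with dxo1-2 xrn3-8, the genotype and this mark cannot be told apart. The nature of each allele, the number of plants behind a library and the hour of harvest were not given in the sources used here. Each value is therefore a level at an unstated time of day, and a lower level and a shift in daily timing cannot be told apart. Nor, in bulk RNA of whole seedlings, can fewer cells of a type and less RNA per cell.

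Library totals over all genes lay between 60138933 and 81494915 counts, and plastid genes held 41.3% to 53.5% of each. The plastid share was 47.6% to 48.5% in dxo1-2 and 49.0% to 53.5% in xrn3-8. In dxo1-2 xrn3-8 it was 41.3% to 45.9%, against 50.8% to 51.6% in Col-0. Levels are given as CPM, counts scaled to a common library size. DXO1 RNA averaged 1.52 ± 0.217 CPM in dxo1-2, 9.91 ± 0.418 CPM in xrn3-8 and 3.07 ± 0.0886 CPM in dxo1-2 xrn3-8, against 8.82 ± 0.172 CPM in Col-0 (SD, n = 3 each). XRN3 RNA averaged 58.99 ± 0.684 CPM in dxo1-2, 21.6 ± 1.49 CPM in xrn3-8 and 40.2 ± 3.41 CPM in dxo1-2 xrn3-8, against 51.8 ± 0.377 CPM in Col-0 (SD, n = 3 each). Each targeted transcript was thus lowest in its single mutant. In dxo1-2 xrn3-8, XRN3 RNA was 1.86 times that in xrn3-8 (adjusted p = 7.64e-07, edgeR), and DXO1 RNA was 2.02 times that in dxo1-2 (adjusted p = 2.72e-05). The summed level of 5 leaf markers lay between 8452 and 10530 CPM in dxo1-2, between 6383 and 7851 CPM in xrn3-8 and between 5080 and 6714 CPM in dxo1-2 xrn3-8, against 9946 to 11090 CPM in Col-0. Of 5 root markers, 4 stayed under 1 CPM in all libraries, and the other, PYK10, was well read in every genotype. It lay between 168 and 190.8 CPM in dxo1-2, between 67.7 and 124 CPM in xrn3-8 and between 74.7 and 96.95 CPM in dxo1-2 xrn3-8. In Col-0 it lay between 95.5 and 152.5 CPM. Summed flower markers reached at most 3.98 CPM, in xrn3-8, against at most 1.78 CPM in Col-0. They did not move alike. PI averaged 2.71 CPM in xrn3-8 against 0.197 CPM in Col-0. AP1, AP3, AG and SEP3, under 1 CPM in all libraries, had lower means in xrn3-8 than in Col-0, without a call at an adjusted p under 0.05 (edgeR). AP1 and AP3 were called lower in dxo1-2. In dxo1-2 xrn3-8, AP1, AP3 and AG were called lower and PI higher.

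The 4 members with a G-box (CACGTG, a site bound by bHLH and bZIP factors of light signalling) in the 300 bases before the annotated gene start are CCA1, LHY, PRR9 and PRR7, and their windows are shown because the windows of the other 5 members held none. Sequences are from the RefSeq genome TAIR10.1, on the strand of the gene, with matches in capitals. The CCA1 window is chr2:19245291-19245590 on the plus strand, the LHY window chr1:37872-38171 on the minus strand, the PRR9 window chr2:19232307-19232606 on the plus strand and the PRR7 window chr5:642031-642330 on the minus strand. The capitals mark G-boxes and, in PRR9, also CGAATC, the reverse complement of the LUX-binding site GATTCG.
CCA1: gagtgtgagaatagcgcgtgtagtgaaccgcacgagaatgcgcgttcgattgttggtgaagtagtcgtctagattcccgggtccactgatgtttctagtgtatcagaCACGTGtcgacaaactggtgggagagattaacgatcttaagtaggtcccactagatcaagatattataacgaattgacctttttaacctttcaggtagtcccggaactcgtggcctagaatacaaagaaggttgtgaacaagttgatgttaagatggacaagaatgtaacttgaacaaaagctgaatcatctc
LHY: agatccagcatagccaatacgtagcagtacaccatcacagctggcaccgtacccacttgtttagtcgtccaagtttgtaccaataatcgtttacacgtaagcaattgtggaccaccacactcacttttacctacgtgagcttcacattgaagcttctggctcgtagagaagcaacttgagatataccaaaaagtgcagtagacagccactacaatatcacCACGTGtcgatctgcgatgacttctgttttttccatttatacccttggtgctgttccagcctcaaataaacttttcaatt
PRR9: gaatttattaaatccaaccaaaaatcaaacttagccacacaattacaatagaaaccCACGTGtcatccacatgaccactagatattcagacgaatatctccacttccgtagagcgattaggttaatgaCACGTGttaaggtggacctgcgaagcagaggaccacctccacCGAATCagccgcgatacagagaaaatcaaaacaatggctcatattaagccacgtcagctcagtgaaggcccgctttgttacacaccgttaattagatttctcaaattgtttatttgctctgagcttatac
PRR7: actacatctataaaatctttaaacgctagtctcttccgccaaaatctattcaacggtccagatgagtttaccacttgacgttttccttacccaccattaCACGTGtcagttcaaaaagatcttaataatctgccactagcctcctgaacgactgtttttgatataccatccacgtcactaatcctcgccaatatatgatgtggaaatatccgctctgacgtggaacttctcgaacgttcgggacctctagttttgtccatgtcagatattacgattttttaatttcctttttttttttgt
PRR9 held 2 G-boxes and the other 3 held 1 each. On either strand, a G-box stood in 7.09% of the same windows of 27437 protein-coding genes. The evening element AAATATCT, the site through which CCA1, LHY and the RVE proteins act, was in none of the 9 windows and in 5.64% of all windows. The related CCA1-binding site AAAAATCT, found in 7.94% of all windows, was in that of RVE6. The LUX-binding site GATACG, found in 5.51%, was in those of RVE4 and LNK2, and GATTCG, found in 9.34%, was in that of PRR9. The window of RVE8 and that of LNK1 held none of the 5 motifs. A match is a description of these letters in this window and says nothing of binding.

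Against Col-0, nearly all members fell in xrn3-8 and in dxo1-2 xrn3-8, most of them by a smaller amount in dxo1-2 xrn3-8, and in dxo1-2 they split. In xrn3-8, 8 of the 9 members were lower and none was higher at an adjusted p under 0.05 (edgeR quasi-likelihood test), while 34.4% of all tested genes were called in either direction, 18.1% lower and 16.3% higher. Under upper quartile scaling that balance turned, with 3153 genes lower and 4613 higher. In dxo1-2 xrn3-8, again 8 were lower and none higher, against 46.4% of all genes called, 22% lower and 24.4% higher. In dxo1-2, PRR9 was higher and RVE8, LNK2 and PRR7 were lower, a share of 4 in 9 beside 42.1% of all genes called, 21.5% higher and 20.7% lower. The called members were also those whose 3 mutant libraries all lay on 1 side of the Col-0 libraries, as did 24.2% of all genes on the lower side in xrn3-8, 26.6% in dxo1-2 xrn3-8 and 27.4% in dxo1-2, and 28.3% on the higher side in dxo1-2. The median log2 fold change of the 9 members was -0.16 in dxo1-2, -1.93 in xrn3-8 and -0.64 in dxo1-2 xrn3-8, where the medians of all tested genes were 0.01, -0.002 and 0.02. Changes of at least 2-fold were called for 1, 7 and 3 members in these comparisons, against 10.7%, 10.1% and 14.1% of all genes. Of the 5 leaf markers, 1, 5 and 4 were lower in these comparisons and 0 higher. In dxo1-2 xrn3-8 over xrn3-8, 2 leaf markers were lower and 0 higher, beside 20.5% of all genes lower and 22.9% higher. The part of leaf RNA in the members' levels was not tested.

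**Figure D1:**
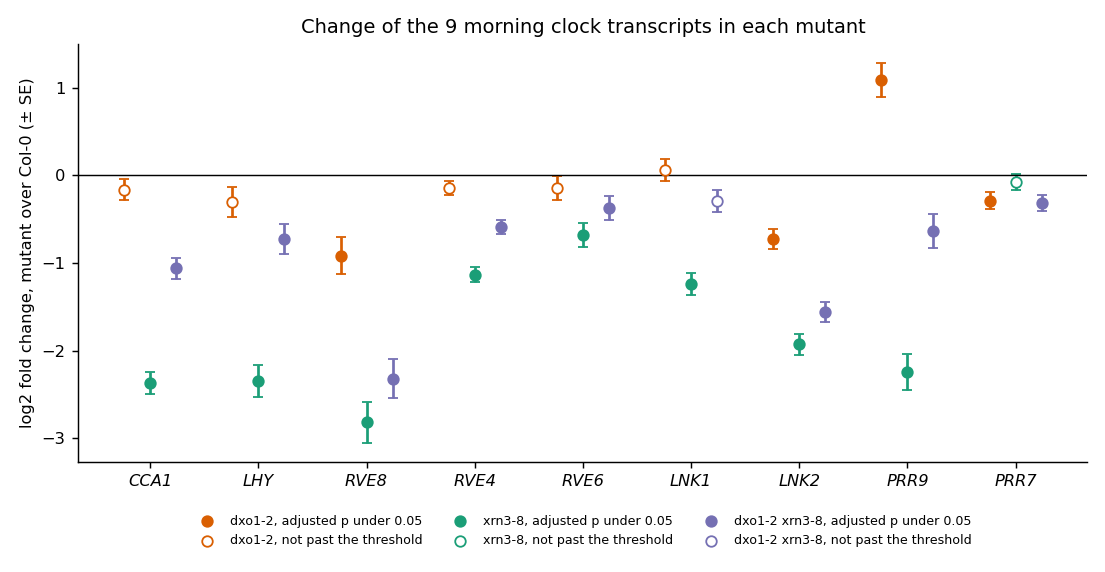
log2 fold change of each member in dxo1-2, xrn3-8 and dxo1-2 xrn3-8 over Col-0, with whiskers for the standard error of the edgeR fit and filled points for an adjusted p under 0.05. In xrn3-8 all members but PRR7 lie between -2.82 and -0.68, and PRR9 in dxo1-2 is the 1 filled point above 0.

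CCA1 (chr2:19245591-19248915, plus strand) and LHY (chr1:33365-37871, minus strand), the dawn MYB-like pair, were each reduced about as strongly as the other in xrn3-8. CCA1 had 61.9, 58.2 and 52.1 CPM in dxo1-2, 12.7, 13.4 and 11.2 CPM in xrn3-8 and 25.7, 33.7 and 33.1 CPM in dxo1-2 xrn3-8, against 68.2, 54.4 and 70.3 CPM in Col-0. The xrn3-8 libraries were lowest, the double mutant libraries lay between them and Col-0 without overlap, and dxo1-2 overlapped Col-0. The log2 fold change of CCA1 was -0.16 ± 0.12 in dxo1-2 (SE, adjusted p = 0.287), -2.37 ± 0.13 in xrn3-8 (adjusted p = 2.92e-08) and, with both mutations, -1.06 ± 0.12 (adjusted p = 7.48e-06). As a fold, CCA1 was 5.18 times lower in xrn3-8 and 2.08 times lower in dxo1-2 xrn3-8.

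LHY had 32.95, 27.4 and 27.3 CPM in dxo1-2, 7.74, 6.54 and 6.96 CPM in xrn3-8 and 15.1, 24.9 and 25.6 CPM in dxo1-2 xrn3-8, against 36.3, 29.98 and 41.9 CPM in Col-0. Its order of genotypes was that of CCA1, but replicate 1 of the double mutant stood well below the other 2. The log2 fold change of LHY was -0.30 ± 0.17 in dxo1-2 (SE, adjusted p = 0.164), -2.35 ± 0.18 in xrn3-8 (adjusted p = 5.51e-07) and, with both mutations, -0.72 ± 0.17 (adjusted p = 0.00313). The call in dxo1-2 xrn3-8 held when any 1 library was left out, with log2 fold changes from -0.86 to -0.51.

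**Figure D2:**
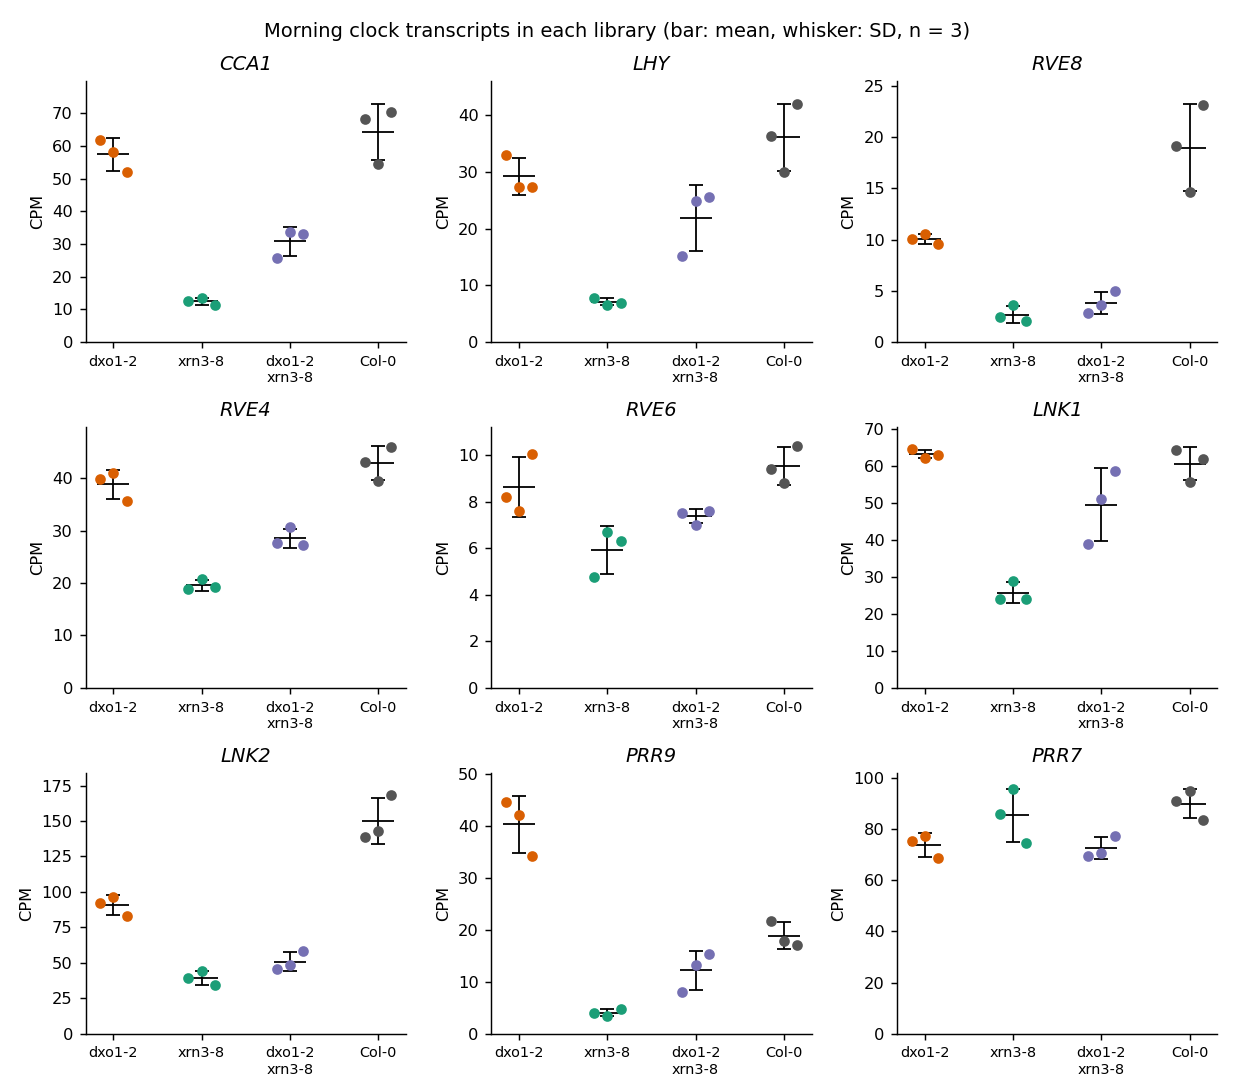
Level of each member in CPM (vertical axis, from 0) in the 3 libraries of dxo1-2, xrn3-8, dxo1-2 xrn3-8 and Col-0, with a bar for the mean and whiskers for the SD. For 8 of the 9 genes, PRR7 being the exception, the xrn3-8 libraries lie wholly below the Col-0 libraries.

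The RVE genes differed from one another in the size of their change. RVE8 (chr3:2946239-2949017, plus strand), the best known evening gene activator of the family, had 10.1, 10.5 and 9.57 CPM in dxo1-2, 2.42, 3.58 and 2.02 CPM in xrn3-8 and 2.81, 3.63 and 4.96 CPM in dxo1-2 xrn3-8, against 19.2, 14.6 and 23.1 CPM in Col-0. Every mutant library lay below every Col-0 library, and the xrn3-8 and double mutant libraries overlapped each other. RVE8 fell in all 3 mutants, with a log2 fold change of -0.91 ± 0.21 in dxo1-2 (SE, adjusted p = 0.00306), -2.82 ± 0.23 in xrn3-8 (adjusted p = 8.61e-07) and, with both mutations, -2.32 ± 0.22 (adjusted p = 1.53e-06). The changes in xrn3-8 and in dxo1-2 xrn3-8, 7.06 and 4.996 times lower than in Col-0, had the lowest log2 fold changes among the 9 members in those comparisons.

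RVE4 (chr5:648648-651979, plus strand), which shares evening targets with RVE8, had 39.8, 40.9 and 35.7 CPM in dxo1-2, 18.8, 20.7 and 19.1 CPM in xrn3-8 and 27.7, 30.6 and 27.3 CPM in dxo1-2 xrn3-8, against 43.1, 39.4 and 45.9 CPM in Col-0. The xrn3-8 and double mutant libraries each lay below Col-0 and apart from each other. Its log2 fold change was -0.14 ± 0.08 in dxo1-2 (SE, adjusted p = 0.188), -1.13 ± 0.08 in xrn3-8 (adjusted p = 3.83e-07) and, with both mutations, -0.59 ± 0.08 (adjusted p = 5.41e-05).

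RVE6 (chr5:21359001-21362273, minus strand), a further member of the same subgroup, had 8.20, 7.62 and 10.1 CPM in dxo1-2, 4.75, 6.71 and 6.30 CPM in xrn3-8 and 7.51, 7.02 and 7.62 CPM in dxo1-2 xrn3-8, against 9.39, 8.79 and 10.4 CPM in Col-0. It was the lowest of the 9 genes per kilobase of exon in Col-0, and dxo1-2 overlapped Col-0. The log2 fold change of RVE6 was -0.14 ± 0.14 in dxo1-2 (SE, adjusted p = 0.424), -0.68 ± 0.14 in xrn3-8 (adjusted p = 0.00149) and, with both mutations, -0.37 ± 0.14 (adjusted p = 0.0377). The call in dxo1-2 xrn3-8 was lost in 6 of 12 fits that left out 1 library: dxo1-2 replicate 1, double mutant replicate 1, 2 or 3, or Col-0 replicate 1 or 3, with adjusted p from 0.0514 to 0.153.

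The LNK coactivators, which bind RVE proteins and are not known to bind DNA themselves, responded unequally. LNK1 (chr5:25672466-25676823, minus strand) had 64.5, 62.2 and 62.8 CPM in dxo1-2, 24.1, 28.9 and 23.9 CPM in xrn3-8 and 38.95, 51.05 and 58.5 CPM in dxo1-2 xrn3-8, against 64.3, 55.6 and 61.7 CPM in Col-0. It was lowered in xrn3-8 without overlap, while the double mutant ranged widely and reached into the Col-0 range. The log2 fold change of LNK1 was 0.06 ± 0.12 in dxo1-2 (SE, adjusted p = 0.715), -1.24 ± 0.12 in xrn3-8 (adjusted p = 5.01e-06) and, with both mutations, -0.29 ± 0.12 (adjusted p = 0.0642). Without double mutant replicate 3 the last of these became -0.44 (adjusted p = 0.00814), and without double mutant replicate 1 it became -0.15. Its adjusted p reached 0.286 among fits that left out 1 library. LNK1 overlaps AT5G64160 on the opposite strand, which averaged 9.21 CPM in dxo1-2, 8.93 CPM in xrn3-8 and 10.1 CPM in dxo1-2 xrn3-8, against 7.96 CPM in Col-0.

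LNK2 (chr3:20175370-20179070, minus strand) had 92.2, 96.7 and 82.9 CPM in dxo1-2, 39.6, 44.4 and 34.4 CPM in xrn3-8 and 45.7, 48.5 and 58.3 CPM in dxo1-2 xrn3-8, against 139, 143 and 169 CPM in Col-0. All 9 mutant libraries were below all 3 Col-0 libraries, in the order dxo1-2, double mutant and xrn3-8 from the least reduced to the most. LNK2 fell in all 3 mutants, with a log2 fold change of -0.73 ± 0.11 in dxo1-2 (SE, adjusted p = 0.00017), -1.93 ± 0.12 in xrn3-8 (adjusted p = 9.58e-08) and, with both mutations, -1.56 ± 0.12 (adjusted p = 1.6e-07). The genes that overlap it, AT3G54490 and AT3G08405, averaged at most 0.103 CPM in any genotype.

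The pseudo-response regulators followed the other members only in part. PRR9 (chr2:19232607-19235179, plus strand), the earliest of the family in the day, had 44.6, 42.2 and 34.2 CPM in dxo1-2, 3.98, 3.34 and 4.68 CPM in xrn3-8 and 7.98, 13.2 and 15.4 CPM in dxo1-2 xrn3-8, against 21.8, 17.9 and 17.1 CPM in Col-0. No library of one genotype overlapped one of another, and the order from high to low was dxo1-2, Col-0, double mutant, xrn3-8. PRR9 rose 2.13-fold in dxo1-2 (log2 fold change 1.09 ± 0.19, SE, adjusted p = 0.000407) and was 4.73 times lower in xrn3-8 (log2 fold change -2.24 ± 0.21, adjusted p = 2.72e-06). In the double mutant its log2 fold change was -0.64 ± 0.19 (adjusted p = 0.0149). That last value depended on single libraries: it was -0.51 without Col-0 replicate 1, where the call was lost (adjusted p = 0.0759), and -0.41 without double mutant replicate 1 (adjusted p = 0.0492).

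PRR7 (chr5:637681-642030, minus strand), expressed slightly later than PRR9, had 75.2, 77.3 and 68.5 CPM in dxo1-2, 86.02, 95.5 and 74.7 CPM in xrn3-8 and 69.5, 70.5 and 77.4 CPM in dxo1-2 xrn3-8, against 90.9, 95.02 and 83.7 CPM in Col-0. The xrn3-8 libraries spanned the Col-0 range, and those of dxo1-2 and the double mutant lay just below it. The log2 fold change of PRR7 was -0.29 ± 0.09 in dxo1-2 (SE, adjusted p = 0.0224), -0.07 ± 0.09 in xrn3-8 (adjusted p = 0.577) and, with both mutations, -0.31 ± 0.09 (adjusted p = 0.0132). The call in dxo1-2 was lost in 4 of 12 fits that left out 1 library, namely dxo1-2 replicate 1 or 3 or Col-0 replicate 1 or 2 (adjusted p from 0.0667 to 0.133). That in dxo1-2 xrn3-8 was lost in 3, without double mutant replicate 1 or Col-0 replicate 1 or 2 (adjusted p from 0.0504 to 0.0765). Under upper quartile scaling the sign of the change in xrn3-8 turned, to a log2 fold change of 4e-04.

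Across the 4 genotypes, the variation between libraries of 1 genotype was not alike for the members. The pooled SD of log2 CPM was 0.337 for RVE8, 0.308 for PRR9 and 0.265 for LHY, above the 90th percentile of 0.233 over tested genes with a mean of at least 5 CPM. It was 0.0955 for RVE4 and 0.118 for PRR7, below the median of 0.125 over those genes. Replicate 1 of the double mutant had the lowest level of its genotype for CCA1, LHY, RVE8, LNK1, LNK2, PRR9 and PRR7, and replicate 2 of Col-0 the lowest for CCA1, LHY, RVE8, RVE4, RVE6 and LNK1.

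Compared per kilobase of exon, LNK2 was the most abundant of the 9 transcripts in dxo1-2, at 30.97 ± 2.41 CPM per kb, and in Col-0, at 51.2 ± 5.56 CPM per kb (SD, n = 3 each). In xrn3-8 and the double mutant PRR7 took that place, at 26.4 ± 3.22 and 22.4 ± 1.34 CPM per kb, against 27.8 ± 1.77 CPM per kb in Col-0. In Col-0 the order after LNK2 was PRR7, CCA1 (23.6 ± 3.16 CPM per kb), LNK1 (22.7 ± 1.69 CPM per kb), RVE4 (20.3 ± 1.54 CPM per kb), LHY (10.5 ± 1.75 CPM per kb), PRR9 (8.84 ± 1.18 CPM per kb), RVE8 (8.08 ± 1.80 CPM per kb) and RVE6 (5.76 ± 0.493 CPM per kb). The neighbours PRR7 and CCA1, CCA1 and LNK1, LNK1 and RVE4, LHY and PRR9, and PRR9 and RVE8 lay closer to each other than the sum of their SDs. RVE8 was the lowest in all 3 mutants, at 4.29 ± 0.205 CPM per kb in dxo1-2, 1.14 ± 0.345 CPM per kb in xrn3-8 and 1.62 ± 0.462 CPM per kb in dxo1-2 xrn3-8.

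Ratios within a library show which related members moved unequally, and they do not depend on the scaling of libraries. The ratio of PRR9 to PRR7 per length was 0.825 ± 0.0706 in dxo1-2, 0.0724 ± 0.0210 in xrn3-8 and 0.252 ± 0.0688 in dxo1-2 xrn3-8, against 0.318 ± 0.0403 in Col-0 (SD, n = 3 each). The ratio of RVE8 to RVE4 was 0.233 ± 0.00712 in dxo1-2, 0.122 ± 0.0309 in xrn3-8 and 0.120 ± 0.0380 in dxo1-2 xrn3-8, against 0.395 ± 0.0592 in Col-0. In every mutant library RVE8 thus held a smaller amount relative to RVE4 than in any Col-0 library. The ratio of LNK1 to LNK2 ran the other way, at 0.768 ± 0.0628 in dxo1-2, 0.715 ± 0.0462 in xrn3-8 and 1.06 ± 0.114 in dxo1-2 xrn3-8, against 0.446 ± 0.0561 in Col-0. For CCA1 to LHY the ratio was 2.48 ± 0.172, 2.22 ± 0.302 and 1.82 ± 0.275 in dxo1-2, xrn3-8 and the double mutant, against 2.25 ± 0.131 in Col-0. The ratio of CCA1 to the evening repressor TOC1 was 1.91 ± 0.392 in dxo1-2, 0.152 ± 0.0173 in xrn3-8 and 0.390 ± 0.0737 in dxo1-2 xrn3-8, against 2.06 ± 0.289 in Col-0.

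**Figure D3:**
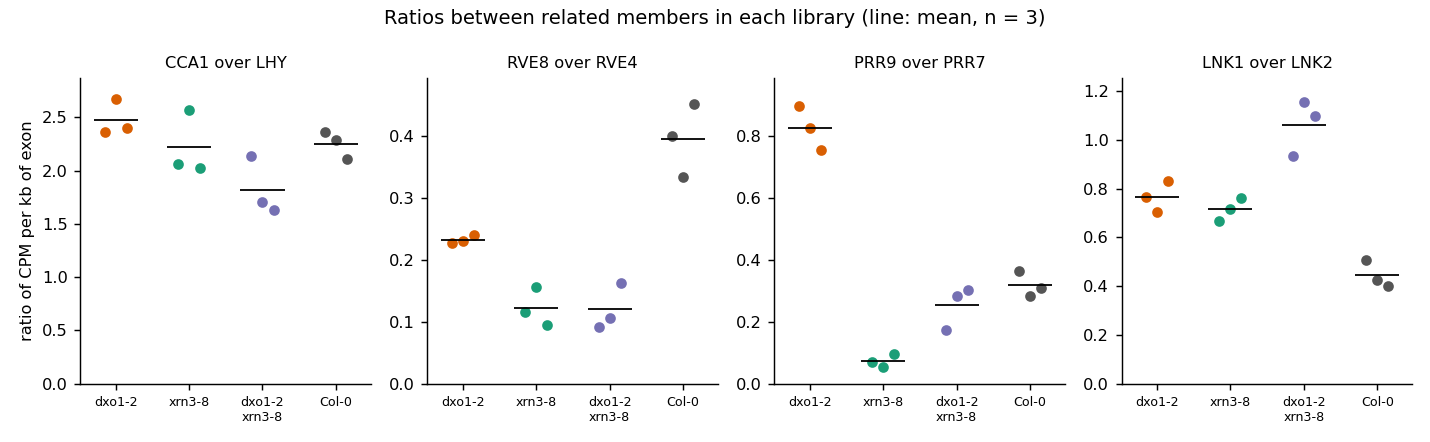
Ratios of CPM per kilobase of exon between related members (vertical axis, from 0) in each of 3 libraries of dxo1-2, xrn3-8, dxo1-2 xrn3-8 and Col-0, with a line for the mean. The PRR9 to PRR7 ratio lies between 0.754 and 0.895 in dxo1-2 and below 0.1 in xrn3-8, against 0.284 to 0.362 in Col-0.

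The comparisons of dxo1-2 xrn3-8 with each single mutant set libraries not marked as analysed again against libraries that carry this mark. Compared with xrn3-8, the double mutant had higher levels of 6 of the 9 members and lower levels of none (adjusted p under 0.05, edgeR), beside 43.5% of all genes called and 22.9% higher. The 3 libraries of dxo1-2 xrn3-8 lay above those of xrn3-8 for 7 members, as they did for 26.2% of all genes. LHY was 3.09 times higher in dxo1-2 xrn3-8 than in xrn3-8 (log2 fold change 1.63 ± 0.18, SE, adjusted p = 7.92e-06), PRR9 3.04 times (adjusted p = 3.1e-05) and CCA1 2.48 times (adjusted p = 2.09e-06). LNK1 was 1.93 times higher (adjusted p = 3.5e-05), RVE4 1.46 times (adjusted p = 0.000136) and LNK2 1.29 times (adjusted p = 0.0192). The LNK2 call was lost without xrn3-8 replicate 3 or double mutant replicate 3 (adjusted p = 0.0918 and 0.0878). RVE8 and RVE6 did not pass, with log2 fold changes of 0.50 ± 0.23 and 0.32 ± 0.14 (adjusted p = 0.0951 and 0.076), and PRR7 gave -0.24 ± 0.09 (adjusted p = 0.051). PRR7 passed as lower in dxo1-2 xrn3-8 under RLE or upper quartile scaling, over nuclear genes, with a mean count of at least 50 and by DESeq2 (adjusted p from 0.0138 to 0.0432). Without single libraries PRR7 ran from -0.32 to -0.15, with adjusted p from 0.013 to 0.233. RVE8 passed as higher without xrn3-8 replicate 2 (log2 fold change 0.78, adjusted p = 0.017) or without double mutant replicate 1 (0.69, adjusted p = 0.0312), and RVE6 without xrn3-8 replicate 2 (0.42, adjusted p = 0.0388). RVE8 was 0.26 without double mutant replicate 3, and RVE6 was 0.18 without xrn3-8 replicate 1. Among fits that left out 1 library, their adjusted p reached 0.382 and 0.279. XRN3 RNA was itself higher in dxo1-2 xrn3-8 than in xrn3-8, as given above, and its part in these differences was not tested.

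Compared with dxo1-2, the double mutant had lower levels of 6 members and higher levels of none, beside 31.8% of all genes called and 15.5% lower. The libraries lay apart on the lower side for 8 members and 22% of all genes. PRR9 was 3.31 times lower in dxo1-2 xrn3-8 than in dxo1-2 (log2 fold change -1.73 ± 0.20, SE, adjusted p = 2.05e-05) and RVE8 2.65 times lower (adjusted p = 0.00028). CCA1, LNK2, RVE4 and LNK1 were also lower, with log2 fold changes of -0.90, -0.83, -0.45 and -0.35 (adjusted p = 8.43e-05, 0.000105, 0.000997 and 0.0392). The LNK1 call was lost in 5 fits without 1 library, dxo1-2 replicate 1, 2 or 3 or double mutant replicate 1 or 2, and its value was -0.21 without double mutant replicate 1. LHY did not pass, at -0.42 ± 0.17 (adjusted p = 0.0753), though its libraries did not overlap. It passed without double mutant replicate 3 (-0.55, adjusted p = 0.0329) and with no filter on low counts (-0.43, adjusted p = 0.0427). Without double mutant replicate 1 the LHY value was -0.21, and its adjusted p reached 0.271 among fits that left out 1 library. RVE6 gave -0.23 ± 0.14 (adjusted p = 0.226) and PRR7 -0.02 ± 0.09 (adjusted p = 0.874). DXO1 RNA was itself higher in dxo1-2 xrn3-8 than in dxo1-2, as given above, and its part in these differences was not tested.

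To set the double mutant beside the single mutants, their log2 changes over Col-0 were added, and the interaction is how far dxo1-2 xrn3-8 lay above that sum. It was above 0 for 6 members and below 0 for none at an adjusted p under 0.05 (edgeR), while 20.9% of all genes passed and 12.2% were above 0. Under upper quartile scaling 2000 genes lay above and 2886 below 0, in place of 2678 and 1906. LHY had the largest interaction, 1.93 ± 0.25 (SE, adjusted p = 0.000123): the single mutants' changes sum to -2.65, and the double mutant measured -0.72. For CCA1 the interaction was 1.48 ± 0.17 (adjusted p = 6.38e-05), with a sum of -2.54 and a measured -1.06. RVE8 gave 1.41 ± 0.31 (adjusted p = 0.0055) and RVE4 0.69 ± 0.12 (adjusted p = 0.00103). LNK2 gave 1.09 ± 0.16 (adjusted p = 0.000385) and LNK1 0.89 ± 0.17 (adjusted p = 0.00256). The 6 members thus fell less in dxo1-2 xrn3-8 than the single mutants' log2 changes add up to. RVE6 (0.46 ± 0.19, adjusted p = 0.11), PRR9 (0.51 ± 0.28, adjusted p = 0.217) and PRR7 (0.05 ± 0.13, adjusted p = 0.833) did not pass. PRR9 passed without double mutant replicate 1 (0.75, adjusted p = 0.0229) and was 0.31 without double mutant replicate 3. Its adjusted p reached 0.429 among fits that left out 1 library. The member median was 0.89, beside 0.01 over all genes. XRN3 and DXO1 RNA had interactions of their own, 0.71 ± 0.11 and 0.85 ± 0.16 (adjusted p = 0.000394 and 0.00191).

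**Figure D4:**
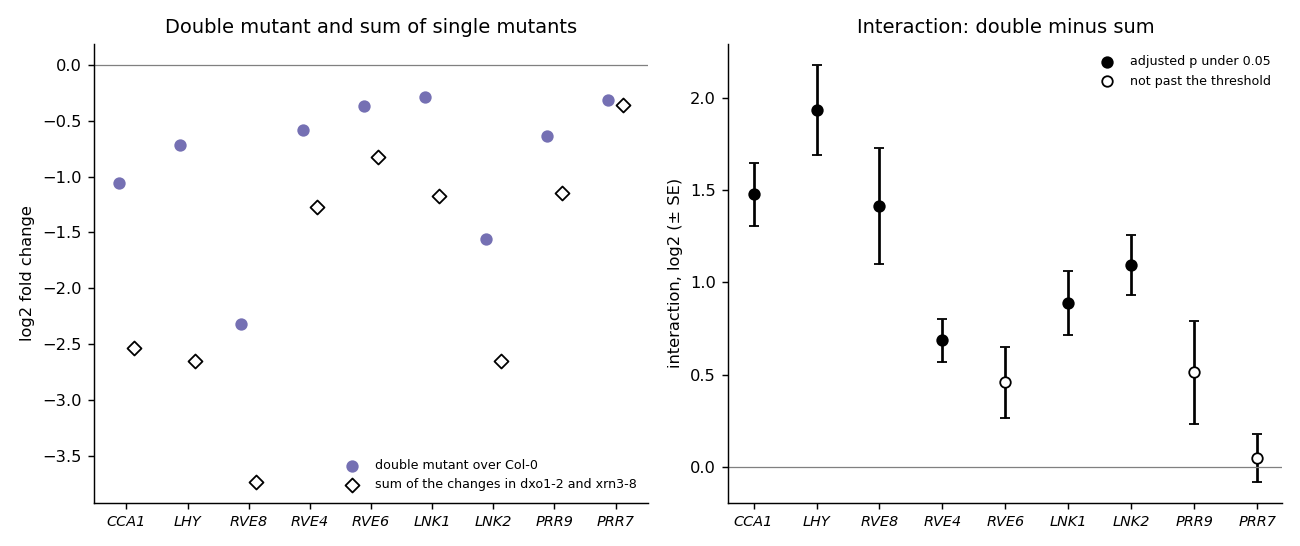
Left, log2 fold change over Col-0 in dxo1-2 xrn3-8 (filled circles) and the sum of the log2 fold changes in dxo1-2 and xrn3-8 (diamonds) for each member; right, their difference, the interaction, with its standard error. The diamonds lie below the circles for all 9 genes, by 0.05 for PRR7 to 1.93 for LHY.

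The later clock genes moved against the morning genes in xrn3-8 and in dxo1-2 xrn3-8. Of 15 listed genes of the day and evening, 9 were higher and 0 lower in dxo1-2, 12 were higher and 1 lower in xrn3-8, and 13 were higher and 0 lower in dxo1-2 xrn3-8 (edgeR, adjusted p under 0.05). Over all tested genes, the shares higher were 21.5%, 16.3% and 24.4% and the shares lower 20.7%, 18.1% and 22% in these comparisons. The median log2 fold changes of the 15 genes were 0.75, 1.93 and 1.88. FKF1, a blue-light receptor of the afternoon, averaged 7.67 ± 1.49 CPM in dxo1-2, 22.6 ± 1.91 CPM in xrn3-8 and 32.2 ± 4.35 CPM in dxo1-2 xrn3-8, against 2.15 ± 0.465 CPM in Col-0 (SD, n = 3 each). Its log2 fold changes were 1.82 ± 0.17, 3.39 ± 0.17 and 3.90 ± 0.17 (SE, adjusted p = 1.73e-06, 1.8e-08 and 1.97e-09). LUX, the DNA-binding subunit of the evening complex, averaged 15.1 ± 1.91 CPM in dxo1-2, 26.4 ± 2.30 CPM in xrn3-8 and 27.2 ± 2.80 CPM in dxo1-2 xrn3-8, against 6.60 ± 1.20 CPM in Col-0. ELF4, a further subunit, had between 3 and 6 counts in dxo1-2, between 91 and 129 in xrn3-8 and between 119 and 156 in dxo1-2 xrn3-8, against 0 to 4 in Col-0.

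COR27 and COR28, cold-regulated repressors of clock genes, had log2 fold changes of 4.51 ± 0.33 and 4.23 ± 0.23 in xrn3-8 and 4.35 ± 0.33 and 4.68 ± 0.23 in dxo1-2 xrn3-8 (SE, adjusted p of 3.45e-07 and 4e-08, then 1.64e-07 and 4.81e-09, edgeR). In dxo1-2, COR28 rose by 1.45 (adjusted p = 0.000297), BOA, a close relative of LUX, by 1.86 (adjusted p = 0.000472) and LUX by 1.19 (adjusted p = 9.08e-06). CHE, a repressor of CCA1, was the 1 gene lower in xrn3-8 (-0.49 ± 0.11, adjusted p = 0.00351). CHE was higher in dxo1-2 (1.02 ± 0.11, adjusted p = 5.88e-06) and in dxo1-2 xrn3-8 (0.33 ± 0.11, adjusted p = 0.0221). TOC1 averaged 31.6 ± 3.83 CPM in dxo1-2, 84.2 ± 3.02 CPM in xrn3-8 and 82.1 ± 4.63 CPM in dxo1-2 xrn3-8, against 32.2 ± 0.561 CPM in Col-0. ELF3, LUX, BOA, FKF1 and LKP2 overlap a gene on the opposite strand, and the authors' strand setting in counting was not given in the sources used here.

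**Figure D5:**
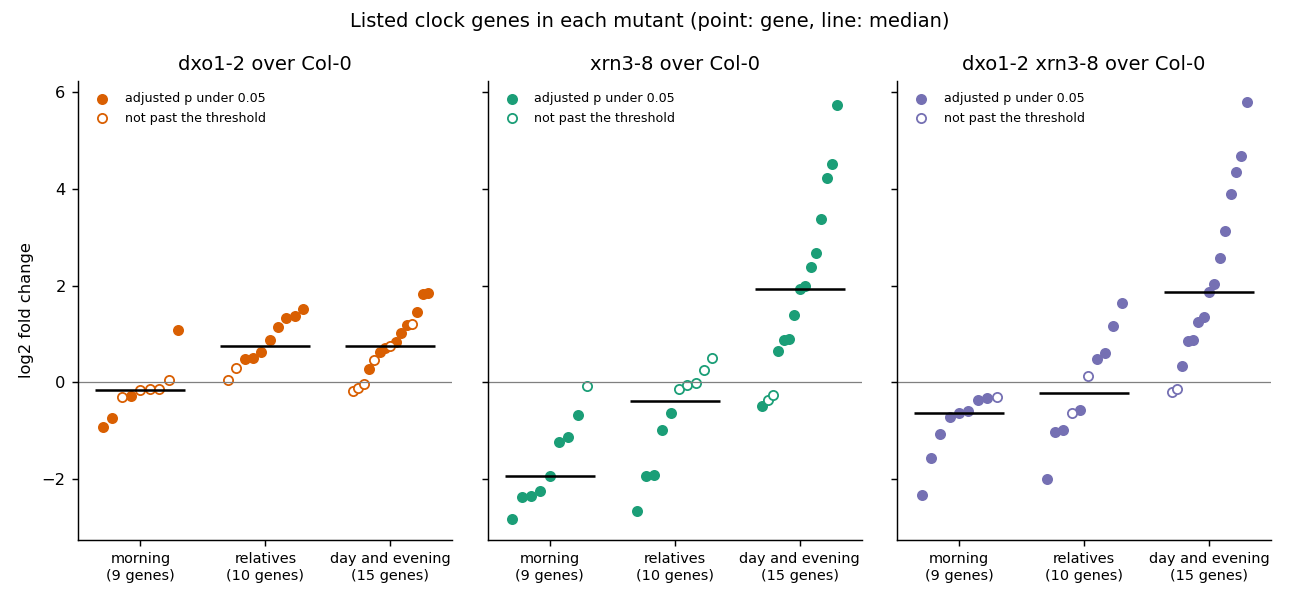
log2 fold change over Col-0 (vertical axis) of 9 morning genes, 10 relatives and 15 day and evening genes in dxo1-2, xrn3-8 and dxo1-2 xrn3-8, ordered by value within a list, with a line for the median and filled points for an adjusted p under 0.05. In xrn3-8 the medians are -1.93 for the morning genes and 1.93 for the day and evening genes.

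The evening element that was in none of the 9 members' windows was in the windows of 7 of these 15 genes, PRR5, TOC1, ELF4, LUX, BOA, FKF1 and COR27. Short stretches around it are shown for 3 of them, with the 1 element of TOC1, both of LUX and 1 of the 3 of COR27, on the gene's strand in TAIR10.1, with the element or its reverse complement AGATATTT in capitals. They are chr5:24674802-24674829 on the plus strand for TOC1, chr3:17182962-17182989 and chr3:17182980-17183007 on the plus strand for LUX, and chr5:17199932-17199959 on the minus strand for COR27.
TOC1: aaatatcatgAGATATTTtctccaagat
LUX first: cggtttgaaaAGATATTTagaagatcta
LUX second: agaagatctaAAATATCTagctaactcg
COR27: ggacggtggaAGATATTTtgcagttgaa
The LUX stretches overlap, and its elements start 70 and 52 bases before the gene start. The G-box, in 4 of the 9 member windows, was in 2 of the 15 day and evening windows.

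Relatives and regulators of the members followed neither list as a whole. Of 10 listed genes, 8 were higher and 0 lower in dxo1-2, 0 were higher and 5 lower in xrn3-8, and 4 were higher and 4 lower in dxo1-2 xrn3-8 (edgeR), beside 21.5%, 16.3% and 24.4% of all genes higher and 20.7%, 18.1% and 22% lower. LWD1 and LWD2, WD-repeat proteins that promote transcription of CCA1 and PRR9, rose in both genotypes with dxo1-2. LWD1 averaged 34.1 ± 2.11 CPM in dxo1-2, 13.00 ± 0.883 CPM in xrn3-8 and 29.8 ± 3.04 CPM in dxo1-2 xrn3-8, against 13.2 ± 0.930 CPM in Col-0 (SD, n = 3 each). LWD2 averaged 29.5 ± 0.295, 9.93 ± 1.11 and 32.05 ± 1.57 CPM in dxo1-2, xrn3-8 and the double mutant, against 10.3 ± 0.792 CPM in Col-0. Their log2 fold changes in dxo1-2 were 1.37 ± 0.09 and 1.51 ± 0.09 (SE, adjusted p = 1.14e-07 and 4.2e-08), and in dxo1-2 xrn3-8 1.18 ± 0.09 and 1.64 ± 0.09 (adjusted p = 2.5e-07 and 1.09e-08).

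LNK3 and LNK4, the smaller relatives of LNK1 and LNK2, were lower in xrn3-8, as LNK1 and LNK2 were, at -2.66 ± 0.23 and -1.92 ± 0.14 (SE, adjusted p = 1.34e-06 and 2.81e-07, edgeR). They were also lower in dxo1-2 xrn3-8, where LNK1 did not pass, at -2.002 ± 0.22 and -0.99 ± 0.13 (adjusted p = 5.44e-06 and 3.05e-05). RVE1, which links the clock to auxin, and RVE5 were lower in xrn3-8, at -1.92 ± 0.17 and -0.99 ± 0.10 (adjusted p = 1.63e-06 and 7.17e-06), and RVE1 also in dxo1-2 xrn3-8, at -0.57 ± 0.16 (adjusted p = 0.00876). In dxo1-2, RVE1 and RVE5 were higher, at 0.87 ± 0.16 and 0.50 ± 0.10 (adjusted p = 0.000493 and 0.00114). RVE7 was lower in dxo1-2 xrn3-8 (-1.03 ± 0.23, adjusted p = 0.00207), and RVE2 and the nuclear regulator TIC were higher there (0.60 ± 0.23 and 0.49 ± 0.12, adjusted p = 0.0407 and 0.00417). RVE7 was also lower in xrn3-8 (-0.64 ± 0.23, adjusted p = 0.0424) and was higher in dxo1-2 (0.62 ± 0.22, adjusted p = 0.0363). Of these calls in dxo1-2 xrn3-8, that of RVE2 was lost without double mutant replicate 1 or 2 or Col-0 replicate 1 or 2 (adjusted p from 0.0724 to 0.161), and that of RVE1 without Col-0 replicate 3 (adjusted p = 0.0519). With the replicate number as a block, the RVE2 call was lost too (adjusted p = 0.0631). RVE2 and RVE3 were higher in dxo1-2, at 1.14 ± 0.23 and 1.34 ± 0.35 (adjusted p = 0.00105 and 0.00714). RVE1, RVE5 and LNK3 overlap a gene on the opposite strand, and RVE3, LNK4 and LWD2 1 on the same strand.

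Of 10 listed genes of light input, 1 was higher and 4 lower in dxo1-2, 1 higher and 5 lower in xrn3-8, and 3 higher and 2 lower in dxo1-2 xrn3-8 (edgeR). The calls, 5, 6 and 5 of 10, stand beside 42.1%, 34.4% and 46.4% of all genes called, so in dxo1-2 and in dxo1-2 xrn3-8 they are near the background. HY5, a bZIP factor of light signalling that binds G-boxes, was higher in dxo1-2 (1.28 ± 0.18, SE, adjusted p = 7.46e-05) and in dxo1-2 xrn3-8 (1.01 ± 0.18, adjusted p = 0.00043) and lower in xrn3-8 (-0.74 ± 0.19, adjusted p = 0.0084), where the call was lost without Col-0 replicate 1 (adjusted p = 0.053). SPA1, a repressor of light signalling, had log2 fold changes of -1.10 ± 0.10 in xrn3-8 and -0.49 ± 0.09 in dxo1-2 xrn3-8 (adjusted p = 1.51e-06 and 0.00071). The blue-light receptor CRY2 rose by 0.44 in xrn3-8 and by 0.36 in dxo1-2 xrn3-8 (adjusted p = 0.000324 and 0.001), and PHYD, a phytochrome, was lower in dxo1-2 (-0.74 ± 0.14, adjusted p = 0.000896). In dxo1-2, CRY2, SPA1 and the phytochrome PHYA were also lower, at -0.24, -0.25 and -0.29 (adjusted p = 0.016, 0.0445 and 0.0289). Each of these 3 calls was lost in some fits that left out 1 library, with adjusted p up to 0.135, 0.197 and 0.136. The SPA1 call was also lost under upper quartile scaling, over nuclear genes, with no low-count filter and with the replicate block (adjusted p from 0.0599 to 0.0849). That of PHYA was lost under upper quartile scaling (adjusted p = 0.0508) and that of CRY2 with no low-count filter (adjusted p = 0.0576).

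Over the 12 libraries, the genes with the pattern most like a member's were named by Pearson's r of log2 CPM among 13450 genes with a mean of at least 5 CPM. The libraries share 4 genotypes, so r mostly reflects the genotype means and is given as a description. For CCA1 they were JAC1 (r = 0.989), SIGE (0.988) and STO (0.988), and STO was also nearest to RVE4 (0.990). RVE8 and LNK2 shared CH1 and ATH13, with AT5G15950 nearest to RVE8 (0.990) and APS3 nearest to LNK2 (0.984). ABCF5 stood among the 3 nearest of both LHY (0.979) and LNK1 (0.980), headed by AT4G29070 for LHY (0.981) and ZFN1 for LNK1 (0.989). PEX19-2 was nearest to RVE6 (0.951), RSH1 to PRR9 (0.980) and AT2G44090 to PRR7 (0.891), the lowest of the 9 best values.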

How the data were processed

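Total RNA was depleted of ribosomal RNA and made into stranded libraries (a TruSeq kit with Ribo-Zero depletion, per the labels' protocols). The authors deposited whole-number counts of reads per gene and library, and the submitters' processing notes name HISAT2 2.0.4, SAMtools 1.1, HTSeq 0.6.0 and the build TAIR10. The strand setting of the counting and the trimming were not given in the sources used here. The deposited tables end with summary lines that name no gene. As a share of all counts in a table, those of the summary lines included, reads without a feature came to 6.99% to 11.1%. Ambiguous reads came to 0.900% to 1.21% and reads without a unique alignment to 9.80% to 11.2%. The summary lines were left out.

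The RefSeq gene table of TAIR10.1 held 36899 of the 37184 gene identifiers, and the other 133 plastid and 152 mitochondrial ones were kept by identifier. RVE6, RVE5, RVE3, DXO1 and COR28 were matched by locus alone, since that table does not give these names. All 12 libraries entered 1 fit in edgeR 4.0.16 (R 4.3.3): TMM scaling, the default low-count filter (minimum count 10, minimum total 15), which kept 21974 genes, and a quasi-likelihood F-test for each of 6 comparisons. Adjusted p-values are Benjamini-Hochberg values over all genes tested in a comparison, called under 0.05. The SE of a log2 fold change was derived from its F statistic. CPM use the TMM-scaled library sizes, and likeness between genes used log2 CPM with a prior count of 2. On simulated counts of 17731 genes, 200 were changed in each mutant by 1.5 on the log2 scale. Of these, 97%, 98% and 98.5% were called in dxo1-2, xrn3-8 and dxo1-2 xrn3-8 over Col-0, and 6.73%, 3.45% and 6.64% of calls were false. Far fewer genes were changed there than were called in the data, and no smaller change was simulated. The rates therefore do not carry over to the data or to changes as small as those of RVE6 and PRR7.

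No pair of libraries of 1 genotype agreed within sampling noise (chi-square per degree of freedom from 14.6 to 93.7 over 12 pairs). The design text calls them biological replicates without saying whether plants were grown apart, so p-values measure the spread between these libraries. The members and gene lists were chosen with earlier results of these data known. Beyond the members, genes named are up to 4 with the highest and up to 4 with the lowest called fold change per list and mutant, the mutated genes, and the 3 most alike genes per member. TOC1, PRR5 and the genes that overlap or lie between members were named outside this rule, after their values were seen, and have no values under the alternatives. Markers of leaf, root and flower were set beside the labelled tissue. With 4 of 5 root markers under 1 CPM in all libraries, they could not show how much root the RNA held. The alternatives were RLE and upper quartile scaling, nuclear genes alone, DESeq2 1.42.0, no low-count filter, a mean count of at least 50, a 2-fold limit, the replicate number as a block, and leaving out each library.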

Additional observations from a re-analysis of the deposited data

Results flagged for a closer look

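For 6 members, the change that went with xrn3-8 differed between plants with and without dxo1-2, tested by the interaction term of the edgeR fit. That term rests on dxo1-2 xrn3-8, the only genotype whose libraries are not marked in their titles as analysed again, and this mark and the genotype cannot be told apart. The log2 fold change of LHY was -0.42 in dxo1-2 xrn3-8 over dxo1-2 and -2.35 in xrn3-8 over Col-0, an interaction of 1.93. CCA1 had -0.90 in dxo1-2 xrn3-8 over dxo1-2 and -2.37 in xrn3-8 over Col-0, an interaction of 1.48. RVE8 had -1.41 and -2.82 in the same comparisons, an interaction of 1.41. LNK2 had -0.83 and -1.93, an interaction of 1.09. LNK1 had -0.35 and -1.24, an interaction of 0.89, and RVE4 had -0.45 and -1.13, an interaction of 0.69. In all 6 the reduction was the smaller one in plants that carried dxo1-2. XRN3 RNA was likewise reduced less there, with -0.55 in dxo1-2 xrn3-8 over dxo1-2 and -1.26 in xrn3-8 over Col-0, an interaction of 0.71. DXO1 RNA had -1.69 in dxo1-2 xrn3-8 over xrn3-8 and -2.54 in dxo1-2 over Col-0, an interaction of 0.85. The part of these unequal losses of XRN3 and DXO1 RNA in the members' interactions was not tested.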

How the results depend on the processing

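Of 1026 values of single members under the alternatives, 983 kept direction and call, 21 lost the call, 14 gained it and 8 turned sign, all of PRR7, which had no call in those comparisons. Of 1064 values for other genes named by the rule, 1013 kept both, 46 lost the call, 5 gained it and 0 turned. PRR7 in xrn3-8 over Col-0 moved to 4e-04 under upper quartile scaling and ran from -0.1633 to 0.015 without single libraries. In dxo1-2 xrn3-8 over dxo1-2 it ran from -0.0852 to 0.0036, and its interaction was -0.0582 under upper quartile scaling and ran from -0.0383 to 0.1403 without single libraries. With a limit of 2-fold, the genes called in dxo1-2, xrn3-8 and dxo1-2 xrn3-8 over Col-0 fell to 2359, 2229 and 3102, those in dxo1-2 xrn3-8 over dxo1-2 and over xrn3-8 to 1583 and 2670, and those of the interaction to 1943. The members called became 1 in dxo1-2, 3 in dxo1-2 xrn3-8, 2 over dxo1-2 and 3 over xrn3-8. Such a limit is stricter by construction. Members called in dxo1-2 xrn3-8 over Col-0 numbered 5 to 8 when 1 library was left out, 5 without Col-0 replicate 1. The cause was not tested.

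Upper quartile scaling changed the split of calls in xrn3-8 to 4613 higher and 3153 lower, from 3585 and 3981, and that of the interaction to 2000 above and 2886 below 0, from 2678 and 1906, with a median over all genes of -0.10 in place of 0.01. In dxo1-2 xrn3-8 over xrn3-8 it gave 4330 higher and 5514 lower, in place of 5040 and 4509. Libraries with the same number did not deviate together across all genotypes: r ran from -0.416 to 0.442 over 18 same-numbered pairs and from -0.569 to 0.643 over 36 others. Of 12 libraries, 4 correlated best with their own number. Between Col-0 and each single mutant, r was above 0 for every same-numbered pair, from 0.013 to 0.228. With the replicate number as a block, the genes called were 8933, 7213 and 9874 for the mutants over Col-0, 6661 and 9207 for dxo1-2 xrn3-8 over dxo1-2 and xrn3-8, and 4258 for the interaction, against 9252, 7566, 10188, 6997, 9549 and 4584 without it. The counts of members called were the same as without the block, at 4, 8, 8, 6, 6 and 6. With 3 libraries a genotype, the spread between libraries sets what could be called, and PRR7, with small changes, was the member most often at the threshold.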

Other observations

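Among the members, PRR9 and CCA1, and PRR7 and RVE4, are near neighbours in TAIR10.1. PRR9 and CCA1 lie 10411 bases apart on chromosome 2, with 3 protein-coding genes between them. PSI-P (AT2G46820), 1 of these, was lower than in Col-0 in every mutant, at a log2 fold change of -0.28 with dxo1-2, -0.55 with xrn3-8 and -1.001 with both (adjusted p = 0.0194, 0.00025 and 6.65e-07, edgeR). ZAT (AT2G46800), a zinc transporter, had 0.35, -0.28 and 0.29 in the same comparisons (adjusted p = 0.000741, 0.00497 and 0.00271). PRR7 and RVE4 lie 6617 bases apart on chromosome 5. Between them, AT5G02830 had -0.43, -0.75 and -0.68 (adjusted p = 0.000851, 1.24e-05 and 1.55e-05), and RHL2 had 0.33, 0.20 and -0.10, with no call.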
